A study of Homo sapiens with 18 samples.

Results

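The S100 genes encode small calcium-binding proteins, and 10 of them were followed in human keratinocytes that carry or lack intact SP100: S100A2, S100A6, S100A7, S100A8, S100A9, S100A10, S100A11, S100A14, S100A16 and S100P. All 10 have a row in the deposited table of 16472 genes, and all 10 passed the filter on low values that left 13280 genes for testing. S100A8 and S100A9 were chosen by their lower level in the knockout line, so that difference is described for them without a test. The other 8 were listed as members of the family, to ask whether the lower level extends to them and how each gene moved over time in interferon. RNA came from NIKS cells, an established line of immortalized human keratinocytes grown on lethally irradiated mouse J2/3T3 fibroblasts. The 6 groups of 3 biological replicates each were SP100 wild type (WT) and SP100 knockout (KO), untreated (0 h) or given human interferon alpha 2a at 25 ng/mL for 12 or 48 h. Each genotype is represented by 1 line, named Vec2 for WT and KO5 for the knockout in the table's columns, which means that loss of SP100 and other differences of the KO5 line cannot be told apart. Untreated libraries at 12 or 48 h were not analysed here, and effects of interferon and of longer culture cannot be told apart either.

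S100 proteins carry EF-hand calcium-binding motifs, usually act as dimers, and bind target proteins when calcium rises. S100A8 and S100A9 form the heterodimer calprotectin, which binds zinc and manganese away from microbes and signals through receptors such as TLR4 and AGER when it is released. Both are abundant in neutrophils, and keratinocytes raise them in wounded, infected or psoriatic skin. Most S100 genes lie in a cluster within the epidermal differentiation complex on chromosome 1, while S100P lies on chromosome 4. In the RefSeq gene order of GRCh38.p14 the listed genes of the cluster follow each other as S100A9, S100A8, S100A7, S100A6, S100A2, S100A16 and S100A14, and S100A10 and S100A11 lie on the other side of the cornified envelope genes. SP100 is a component of PML nuclear bodies, and type I interferon raises its transcript.

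The sequences just upstream of the start sites were searched for short motifs. RefSeq windows of GRCh38.p14, from 250 bases before to 50 after a gene's start, were found for 10 of 10 genes and compared with 35116 windows of the same length. A sense-strand TATAAA, the core of a TATA box, began 20 to 40 bases before the start in the window used for 4 genes, S100A7, S100A8, S100A9 and S100P, against 2.3% of all windows. These 4 were also the genes with the lowest levels of the 10 in these cells, as given below. The search for TATAAA was added after the sequences had been seen, so its share of all windows is a description and no test. It counted exact matches only, so it does not show that the other genes lack a similar element. The 250 bases upstream of S100A8, S100A9 and S100P are printed 5′ to 3′ because S100A8 and S100A9 lead the results and S100P, on another chromosome, has the same element. The TATAAA is in capitals.

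S100A8: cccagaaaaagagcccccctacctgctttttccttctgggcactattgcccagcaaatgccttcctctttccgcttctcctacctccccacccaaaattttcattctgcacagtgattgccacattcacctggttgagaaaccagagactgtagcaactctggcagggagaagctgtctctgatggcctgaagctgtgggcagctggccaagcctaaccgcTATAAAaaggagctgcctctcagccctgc
S100A9: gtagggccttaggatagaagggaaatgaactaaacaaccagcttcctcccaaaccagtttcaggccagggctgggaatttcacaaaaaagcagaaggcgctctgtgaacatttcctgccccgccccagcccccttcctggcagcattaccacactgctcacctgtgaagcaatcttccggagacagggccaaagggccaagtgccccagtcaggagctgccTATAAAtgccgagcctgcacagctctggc
S100P: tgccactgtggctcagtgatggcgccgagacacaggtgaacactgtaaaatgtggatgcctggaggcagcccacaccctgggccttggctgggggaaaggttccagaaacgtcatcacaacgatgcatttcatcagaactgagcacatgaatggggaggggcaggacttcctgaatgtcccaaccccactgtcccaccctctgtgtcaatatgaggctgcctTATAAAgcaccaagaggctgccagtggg

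The S100A8 stretch is chr1:153391074-153391323 on the minus strand, that of S100A9 is chr1:153357604-153357853 on the plus strand, and that of S100P is chr4:6693628-6693877 on the plus strand. TATAAA began 29 bases before the start in S100A8 and S100A9 and 28 bases before it in S100P and S100A7. S100A8 has 3 overlapping windows in the table, and the middle one is shown. Of the other S100A8 windows 1 has TATAAA 126 bases before its start and 1 has none. For comparison, S100A6, which was lower in the knockout without an exact TATAAA, and S100A14, which was higher in the untreated knockout, read as follows. Each holds tataag close to its start, which differs from TATAAA in the last letter only. Capitals in S100A14 mark its match to an interferon response core.

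S100A6: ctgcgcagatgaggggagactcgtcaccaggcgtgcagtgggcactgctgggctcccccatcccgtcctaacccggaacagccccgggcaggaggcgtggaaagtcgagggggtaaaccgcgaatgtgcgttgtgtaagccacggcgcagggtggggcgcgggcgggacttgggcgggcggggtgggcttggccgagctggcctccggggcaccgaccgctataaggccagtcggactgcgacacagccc
S100A14: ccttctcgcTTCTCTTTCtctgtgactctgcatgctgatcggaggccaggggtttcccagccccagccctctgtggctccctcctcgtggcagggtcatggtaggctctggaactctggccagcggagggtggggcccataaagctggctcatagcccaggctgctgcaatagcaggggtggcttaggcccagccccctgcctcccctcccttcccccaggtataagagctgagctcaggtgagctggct

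These are chr1:153535992-153536241 and chr1:153616326-153616575, both on the minus strand. The interferon response core was searched as GAAANNGAA on both strands, and 8.11% of all windows hold it. Among the listed genes S100A14 matched once, 241 bases before its start, and S100A8 matched once in the window of its most upstream start, which is not printed. The AP-1 motif TGANTCA, held by 7.71% of all windows, was found in S100A2 at 52 bases before the start. Part of a C/EBP site, TTNNGCAA, held by 10.5% of windows, was found in S100A11 at 33 bases before the start. TATAAA on either strand was held by 11.5% of windows. A match describes letters in these windows and says nothing of a factor's binding.

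The genes spanned levels from over 5000 RPKM (reads scaled to gene length and library total) to about 1. S100A2, a nuclear S100 protein of basal keratinocytes, was the most abundant, with a mean of 4649 RPKM over the 18 libraries and rank 7 of all 16472 genes by mean. S100A6, which binds annexins and CACYBP, followed at 2147 RPKM and rank 41. S100A11 and S100A10, both annexin partners, ranked 55 and 76. S100A14 and S100A16 ranked 96 and 184. S100A9 ranked 763, S100A8 ranked 2580, S100P ranked 7711 and S100A7 ranked 12409. In untreated WT cells the ranges of neighbouring genes in this order were separate except for S100A11 and S100A10, at 1510 to 1601 and 1432 to 1532 RPKM. In KO cells at 12 h S100A11 lay above S100A6, with separate ranges, and at 48 h their ranges overlapped. At 48 h in KO the ranges of S100A8 and S100P, 20.7 to 23.8 and 13.0 to 21.7 RPKM, also overlapped. In every library the 10 genes together made up between 1.57% and 1.90% of the summed RPKM of the table.

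Keratinocyte identity and depth were checked in all libraries before the comparisons. KRT5 and KRT14, keratins of basal keratinocytes, were at 7505 to 7933 and 5934 to 6840 RPKM in the 6 untreated libraries, and all 12 basal markers have a row. SP100 RNA was at 30.1, 31.9 and 27.9 RPKM in untreated WT and at 16.0, 14.2 and 15.2 RPKM in untreated KO. The knockout line kept SP100 transcript at 50.5%, 55.8% and 46.9% of WT at 0, 12 and 48 h, respectively. All 12 classical interferon-stimulated genes of the list passed the test at 12 and 48 h in both lines, all higher. Depth relative to the mean library, recovered from values worth a single read, ranged from 0.85 to 1.256. The total number of reads is not given in the sources used here, so no counting interval was computed.

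S100A8 and S100A9 were lower in the knockout line at every time, and of the 8 genes tested S100A6 alone passed as lower at all 3 times. In KO relative to WT, S100A8 stood at 75.1% untreated, 69.6% after 12 h and 71.8% after 48 h. S100A9 was at 81.9%, 71.5% and 75.2%. S100A6 was at 83.4%, 79.2% and 80.1%. The lower level did not take in the whole list: S100A14 passed as higher in untreated KO, S100A10 passed as lower at 48 h, a call lost in most alternatives, and the other 5 tested genes did not pass between the lines.

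Untreated WT libraries had 62.8, 64.2 and 56.6 RPKM of S100A8, and untreated KO libraries had 45.8, 47.0 and 45.1. At 12 h the WT values were 47.4, 50.4 and 56.7 and the KO values 30.6, 39.8 and 37.2. At 48 h WT libraries had 26.5, 33.4 and 32.8, and KO libraries had 23.8, 22.0 and 20.7. At each time every KO library lay below every WT library. On the log2(RPKM + 1) scale used for all changes here, the S100A8 difference between KO and WT was -0.40 untreated, -0.52 after 12 h and -0.46 after 48 h. The standard error (SE) was 0.098 for each. This scale understates changes of genes with low values.

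For S100A9, untreated WT libraries had 181.5, 162.8 and 155.3 RPKM, and untreated KO libraries 135.2, 135.8 and 137.8. At 12 h it was at 164.3, 157.3 and 171.8 RPKM in WT and at 112.6, 117.6 and 122.7 in KO. At 48 h WT libraries had 91.2, 105.5 and 108.4 RPKM, and KO libraries had 76.4, 78.1 and 75.0. The 2 lines did not overlap at any time. The S100A9 difference on the log2 scale was -0.28, -0.48 and -0.40 at 0, 12 and 48 h, each with an SE of 0.062.

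**Figure D1:**
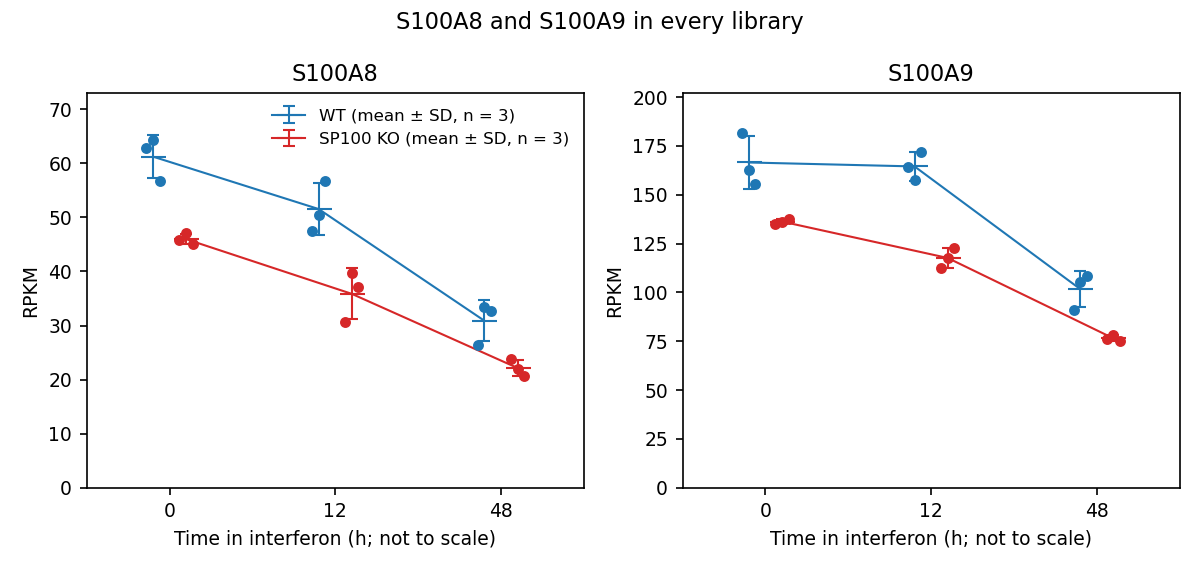
RPKM of S100A8 (left) and S100A9 (right) in each of the 18 libraries against time in interferon (0, 12 and 48 h, evenly spaced). Points are libraries, horizontal ticks and bars are the mean and SD of 3, blue is WT and red is SP100 KO. KO libraries lie below WT libraries at every time, and both genes are lowest at 48 h in both lines, with S100A8 at 26.5 to 33.4 RPKM in WT and 20.7 to 23.8 in KO.

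Of the 8 genes tested between the lines, 2 passed at 0 h, 1 higher and 1 lower, where 4.89% of all tested genes passed in either direction. At 12 h 1 passed, lower, against 3.62% of all tested genes, and at 48 h 2 passed, both lower, against 4.19%. The median difference of the 8 genes was -0.019, -0.017 and -0.016 on the log2 scale at 0, 12 and 48 h, beside 0.020, 0.010 and 0.010 over all tested genes. A call is an adjusted p below 0.05 in limma with Benjamini-Hochberg adjustment over all 13280 genes. Before adjustment, 3, 4 and 7 of the 8 genes had a limma p below 0.05 at 0, 12 and 48 h. These included genes higher and genes lower in KO at each time, and the share over all genes was not computed.

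S100A6, abundant in proliferating epithelial cells and fibroblasts, was at 2666, 2746 and 2651 RPKM in untreated WT libraries and at 2178, 2186 and 2360 in untreated KO libraries. At 12 h it was at 2032, 2104 and 2015 RPKM in WT and at 1586, 1646 and 1640 in KO. At 48 h it was at 2201, 2446 and 2482 in WT and at 1979, 1885 and 1848 in KO. The lines did not overlap at any time. The S100A6 difference was -0.26 at 0 h (SE 0.044, adjusted p = 0.00191 in limma), -0.34 at 12 h (adjusted p = 0.000246 in limma) and -0.32 at 48 h (adjusted p = 0.000337 in limma). Those 3 calls were kept in all 13 alternative settings run for each.

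S100A14, a membrane-associated S100 protein of epithelia, stood at 1220, 1271 and 1210 RPKM in untreated WT and at 1381, 1337 and 1387 in untreated KO. All KO libraries lay above all WT libraries. The difference was 0.15 (SE 0.030, adjusted p = 0.00694 in limma), and it was 0.126 to 0.171 over the alternatives. In a fit on the untreated libraries alone the adjusted p was 0.0626. At 12 h the difference was 0.082 (adjusted p = 0.164 in limma) and at 48 h 0.064 (adjusted p = 0.296 in limma).

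S100A10, which joins ANXA2 in a heterotetramer at the plasma membrane, had 1500, 1580 and 1503 RPKM in WT and 1401, 1350 and 1441 in KO at 48 h. The groups were separate, and the difference was -0.13 (SE 0.034, adjusted p = 0.0413 in limma). That call was lost in 9 of 13 alternatives, among them leaving out any of 5 of the 6 libraries at 48 h, with a highest adjusted p of 0.234. S100A10 means were also lower in KO at 0 and 12 h, where the differences were -0.068 (adjusted p = 0.305 in limma) and -0.083 (adjusted p = 0.216 in limma).

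S100A16, a widely expressed family member, had a higher mean in KO at each time without passing. It had 466, 459 and 456 RPKM in untreated WT and 490, 483 and 526 in untreated KO. The S100A16 differences were 0.12, 0.14 and 0.13 at 0, 12 and 48 h, with adjusted p-values in limma of 0.172, 0.127 and 0.145. The groups were separate at 0 and 12 h and overlapped at 48 h. Without the third KO library at 48 h, at 466 RPKM, the adjusted p there was 0.0442.

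S100A2 and S100A11 had small differences between the lines that did not pass. The S100A2 difference was -0.081, -0.052 and -0.096 at 0, 12 and 48 h, with 95% intervals of -0.18 to 0.013, -0.15 to 0.042 and -0.19 to -0.002. That of S100A11 was 0.030, 0.019 and 0.078, with intervals of -0.042 to 0.10, -0.054 to 0.091 and 0.006 to 0.15. These 6 differences had limma adjusted p-values of 0.259 or more. The intervals of both genes lie above the S100A8 and S100A9 estimates at the same times. S100A8 and S100A9 were chosen for their lower level, so this describes values and tests no difference between genes. At 0 h the S100A2 interval overlaps that of S100A9, at -0.42 to -0.15.

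S100P and S100A7 were low, and their intervals were wide. S100P, a calcium-binding protein raised in several carcinomas, was at 8.31, 8.29 and 9.06 RPKM in WT and at 13.0, 21.7 and 15.3 in KO at 48 h. Every KO library was above every WT library, with a difference of 0.86 and a 95% interval of 0.16 to 1.56. The adjusted p was 0.189 in limma, and 0.0319 in a fit on the 48 h libraries alone. S100A7, psoriasin, an antimicrobial protein of inflamed skin, never exceeded 2.28 RPKM and was listed at 0 in 1 KO library at 48 h. The S100A7 differences were -0.081, -0.21 and -0.22, with intervals that all spanned 0 and reached from -0.74 to 0.44, a range that holds the S100A8 and S100A9 estimates.

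**Figure D2:**
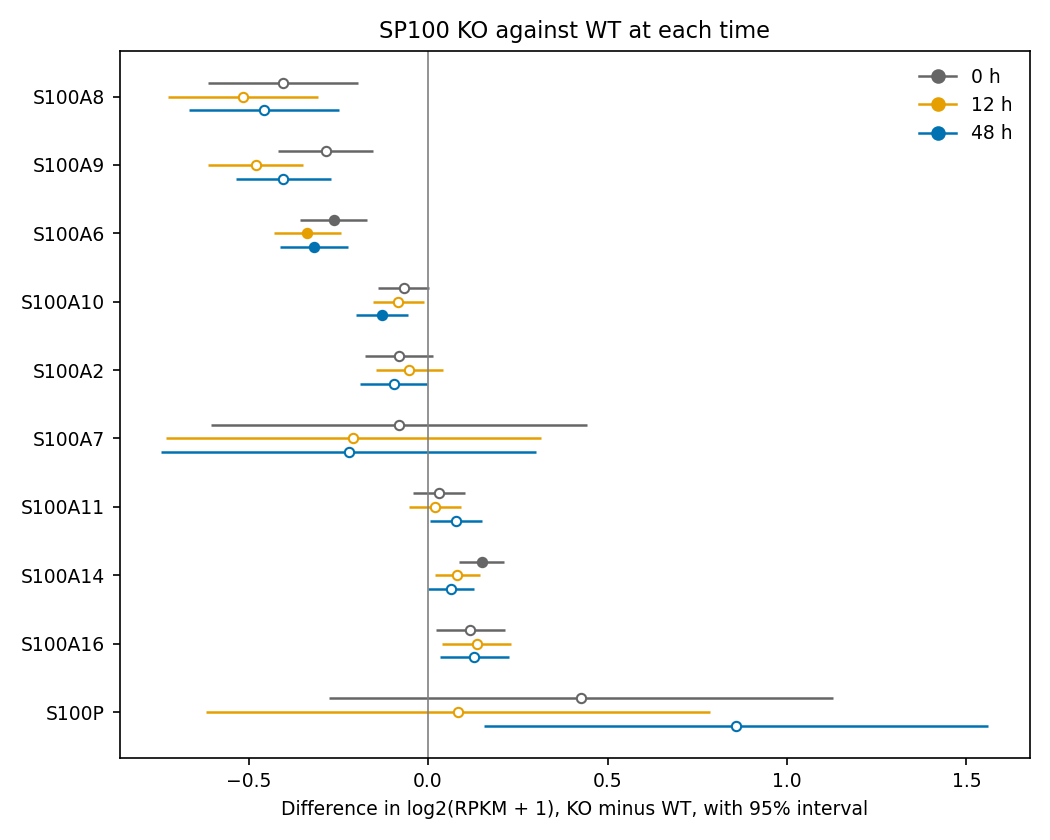
Difference in log2(RPKM + 1) between SP100 KO and WT for each gene at 0 h (grey), 12 h (orange) and 48 h (blue), with 95% intervals as lines. Filled points passed the adjusted test and open points did not, and S100A8 and S100A9 are open because they were not tested in this contrast. S100A6 is the gene with 3 filled points, at -0.26, -0.34 and -0.32, while the points of S100A11, S100A14, S100A16 and S100P lie to the right of 0 at all times.

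**Figure D3:**
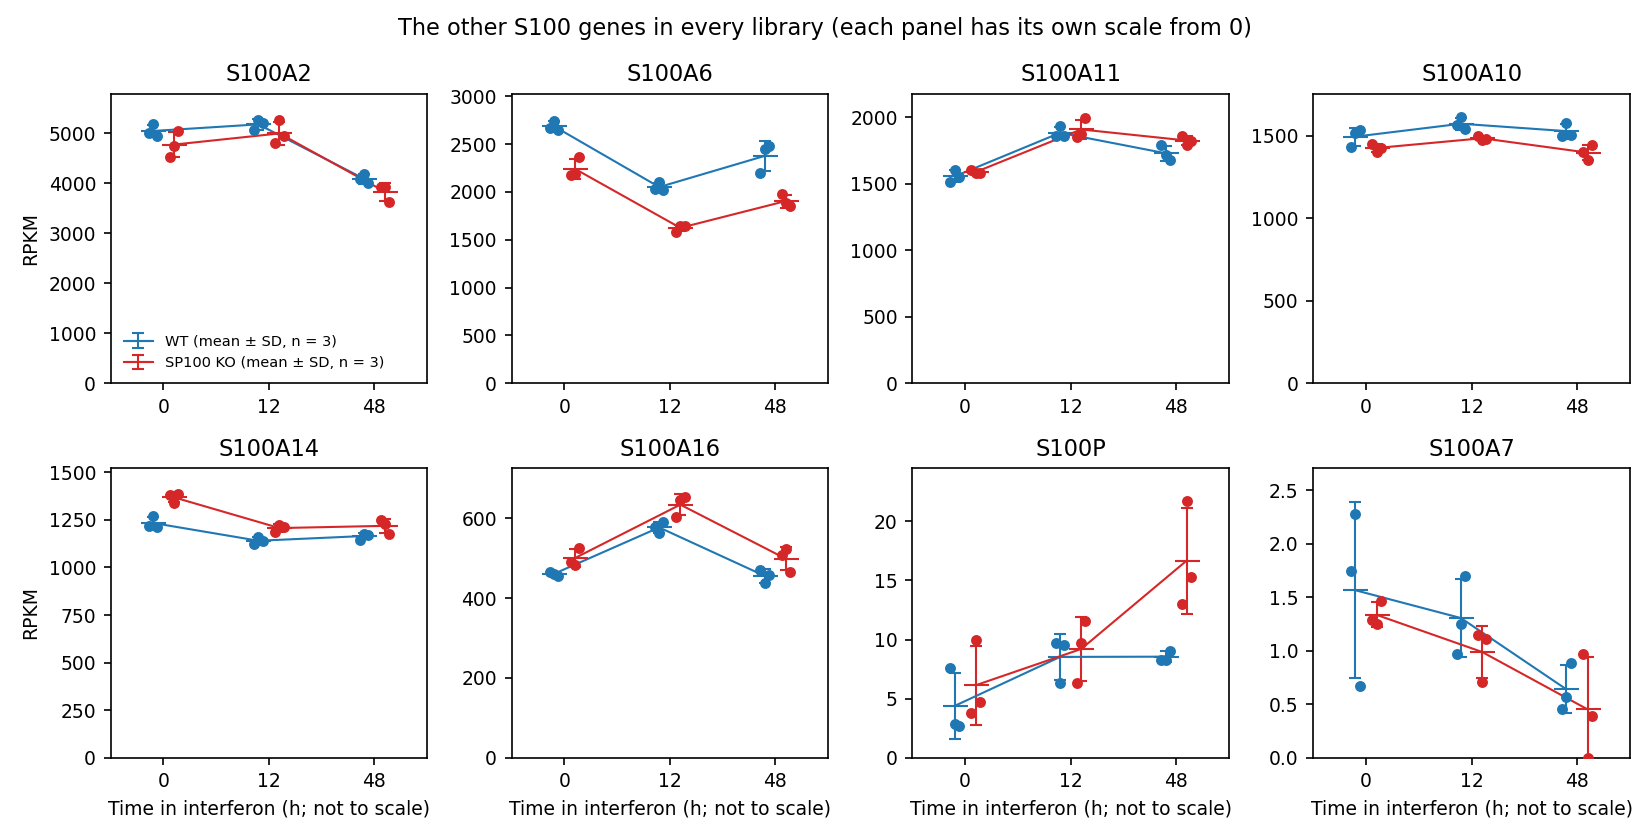
RPKM of the other 8 genes in each library against time in interferon (0, 12 and 48 h, evenly spaced), each panel on its own scale from 0. Points are libraries, ticks and bars are the mean and SD of 3, blue is WT and red is SP100 KO. S100A6 shows the separate lines and the low at 12 h, and S100A16 the peak at 12 h, with means of 577 RPKM in WT and 634 in KO.

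Some markers of other cell types were lower in the knockout line. Of the 18 fibroblast markers listed, 10 have a row, and their summed level was 424 to 443 RPKM in untreated WT and 289 to 304 in untreated KO, with VIM as the main part. At 0 h 2 of the 8 tested were called, both lower, where 2.07% of all tested genes were called lower. VIM was -0.59 (adjusted p = 2.91e-08 in limma) and MMP2 -1.20 (adjusted p = 2.1e-05 in limma) in untreated KO against WT. COL1A1, a defining collagen of fibroblasts, was at 1.29 to 2.08 RPKM in those 6 libraries, and COL6A3 at 0.30 to 0.67. Of 10 myeloid markers 3 have a row, with ITGAM at 0.11 to 0.31 RPKM in those libraries. CD68 was -0.35 in untreated KO (adjusted p = 0.0101 in limma) and did not pass at 12 or 48 h (adjusted p = 0.354 and 0.484 in limma), and CD14 was 0.018 in untreated KO (adjusted p = 0.976 in limma). Of the 12 basal keratinocyte markers, 2 were called lower in untreated KO, COL17A1 at -0.20 (adjusted p = 0.00689 in limma) and LAMB3 at -0.37 (adjusted p = 0.006 in limma), and 11 had negative differences, with a median of -0.14. The part of these markers in the S100A6, S100A8 and S100A9 differences was not tested. In bulk RNA, fewer cells of a type and less RNA per cell cannot be told apart.

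Over the time course S100A8 and S100A9 fell in both lines. At 48 h S100A8 was at 50.4% of the untreated level in WT and 48.2% in KO, and S100A9 at 61.1% and 56.1%. S100A2 fell at 48 h to 81.1% in WT and 80.3% in KO. S100A6 fell at 12 h and partly returned by 48 h, while S100A11 and S100A16 rose at 12 h. S100A11 was still higher at 48 h, and S100A16 was then at 98.9% of its untreated mean in WT and 99.7% in KO.

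Of the 10 genes, 3 rose and 2 fell at 12 h in WT, where 44.9% of all tested genes passed. In KO at 12 h 2 genes rose and 4 fell, against 48.8% of all tested genes. At 48 h against untreated, WT had 1 gene higher and 4 lower (12.8% of all tested genes passed), and KO had 2 higher and 5 lower (13.3%). From 12 to 48 h each line had 1 gene higher and 5 lower, against 35.9% of all tested genes in WT and 41.7% in KO. Against 48 h backgrounds near 13%, 5 and 7 of 10 genes passed, while at 12 h the members' count in either direction was near the background. The background was not matched for level. S100A2, S100A6, S100A10, S100A11, S100A14 and S100A16 are abundant and had SEs of 0.030 to 0.045, so small changes could pass in them. The median change of the 10 genes at 48 h was -0.13 in WT and -0.20 in KO, beside -0.003 and -0.012 over all tested genes.

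At 12 h the median of all tested genes was itself shifted, by -0.085 in WT and -0.095 in KO. After median-of-ratios scaling of the columns, which brings that median to -0.007 and -0.004, WT had 5 genes higher and 1 lower at 12 h, and KO had 4 higher and 3 lower. Under that scaling S100A2 and S100A10 joined the genes that rose at 12 h in both lines. S100A14 in WT and S100A9 in KO no longer passed at 12 h.

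S100A8 went from a WT mean of 61.2 ± 4.0 RPKM (SD, n = 3) to 51.5 ± 4.7 at 12 h and 30.9 ± 3.8 at 48 h. Its KO means were 46.0 ± 0.98, 35.9 ± 4.7 and 22.2 ± 1.5 RPKM. At 12 h the WT change was -0.25 (SE 0.098, adjusted p = 0.0521 in limma), with 1 treated library inside the untreated range. It passed in 5 of 13 alternatives, with adjusted p-values of 0.0273 to 0.209 over all of them. The KO change at 12 h was -0.36 (adjusted p = 0.00677 in limma), with separate groups. From 12 to 48 h S100A8 fell by 0.72 in WT (adjusted p = 3.89e-05 in limma) and by 0.67 in KO (adjusted p = 6.36e-05 in limma). Against untreated cells the 48 h changes were -0.97 in WT (adjusted p = 3.04e-06 in limma) and -1.02 in KO (adjusted p = 1.72e-06 in limma).

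S100A9 in WT had no called change at 12 h, at 166.5 ± 13.5 and 164.5 ± 7.2 RPKM (SD, n = 3), and then fell to 101.7 ± 9.2 at 48 h. The WT change at 12 h was -0.015, with a 95% interval of -0.15 to 0.12 and an adjusted p of 0.864 in limma. It was 0.075 with median-of-ratios scaling. In KO the means were 136.3 ± 1.3, 117.6 ± 5.0 and 76.5 ± 1.6 RPKM, and the 12 h change was -0.21 (adjusted p = 0.0106 in limma). With median-of-ratios scaling that KO change was -0.11, with an adjusted p of 0.159 in limma. At 48 h the changes from untreated were -0.71 in WT (adjusted p = 5.2e-07 in limma) and -0.83 in KO (adjusted p = 7.3e-08 in limma). All 6 libraries at 48 h lay below all libraries of the same line at 0 and 12 h.

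S100A2 was lower at 48 h in both lines. WT libraries had 5005, 5173 and 4946 RPKM untreated, 5056, 5257 and 5208 at 12 h, and 4073, 4191 and 4000 at 48 h. KO libraries had 4524, 4750 and 5035, then 4792, 5254 and 4931, and then 3931, 3932 and 3620 RPKM. The 48 h groups lay below both earlier groups in each line. The S100A2 change at 48 h was -0.30 in WT (adjusted p = 0.000184 in limma) and -0.32 in KO (adjusted p = 0.000115 in limma).

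S100A6 had its lowest level at 12 h. Its 12 h change, from the values above, was -0.39 in WT (adjusted p = 3.85e-06 in limma) and -0.46 in KO (adjusted p = 4.92e-07 in limma). It rose from 12 to 48 h by 0.21 in WT (adjusted p = 0.00159 in limma) and by 0.23 in KO (adjusted p = 0.000675 in limma). At 48 h it was still below untreated, by -0.18 in WT (adjusted p = 0.0129 in limma) and -0.24 in KO (adjusted p = 0.00182 in limma). The WT call at 48 h was lost in 3 of 13 alternatives, including without the second untreated library or the first 48 h library, with a highest adjusted p of 0.0613.

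S100A11 and S100A16 had their highest means at 12 h. S100A11, which takes part in the cornified envelope and in membrane repair with annexins, had 1510, 1601 and 1553 RPKM in untreated WT, 1858, 1933 and 1856 at 12 h, and 1792, 1717 and 1677 at 48 h. In KO the values were 1605, 1577 and 1580, then 1854, 1877 and 1992, and then 1860, 1792 and 1822 RPKM. All treated libraries lay above the untreated ones of their line. Its changes were 0.28 and 0.26 at 12 h in WT and KO (adjusted p = 9.64e-06 and 1.17e-05 in limma) and 0.15 and 0.20 at 48 h (adjusted p = 0.00682 and 0.000769 in limma). From 12 to 48 h it fell by 0.12 in WT (adjusted p = 0.0103 in limma), a call lost without the third 48 h library (adjusted p = 0.055 in limma).

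S100A16 rose from 456 to 466 RPKM in untreated WT to 563 to 590 at 12 h, and stood at 438 to 471 at 48 h. In KO it rose from 483 to 526 RPKM to 603 to 653 and stood at 466 to 522 at 48 h. The 12 h libraries were above all others of their line. The changes at 12 h were 0.32 in WT (adjusted p = 3.26e-05 in limma) and 0.34 in KO (adjusted p = 1.55e-05 in limma). From 12 to 48 h the gene fell by 0.34 in WT (adjusted p = 3.38e-05 in limma) and by 0.35 in KO (adjusted p = 2.11e-05 in limma). S100A16 and S100A14 are neighbours on chromosome 1, and their 12 h changes had opposite signs.

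S100A14 at 12 h had 1121, 1161 and 1138 RPKM in WT and 1184, 1223 and 1213 in KO, all below the untreated libraries of the same line. The change was -0.11 in WT (adjusted p = 0.00576 in limma) and -0.18 in KO (adjusted p = 0.000122 in limma). With median-of-ratios scaling the WT change was -0.022 (adjusted p = 0.588 in limma). At 48 h it was -0.082 in WT (adjusted p = 0.0831 in limma) and -0.17 in KO (adjusted p = 0.00113 in limma).

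S100A10 moved little over time. Its group means lay between 1397 and 1572 RPKM, and no change from untreated passed, with limma adjusted p-values of 0.0855 or more. From 12 to 48 h in KO it fell by 0.088 (adjusted p = 0.0467 in limma), a call lost in 9 of 13 alternatives, with a highest adjusted p of 0.192. With median-of-ratios scaling its 12 h changes were 0.17 in WT and 0.16 in KO, with adjusted p-values of 0.00118 and 0.00112 in limma.

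S100P rose at 12 h in WT and at 48 h in KO, at low levels. In untreated WT it was at 7.60, 2.89 and 2.67 RPKM, and at 12 h at 9.74, 6.32 and 9.54. One untreated library lay within the 12 h range, and the change of 0.92 (adjusted p = 0.0333 in limma) was lost when any of 4 libraries was left out, with a highest adjusted p of 0.139. At 48 h the WT change was 0.94 (adjusted p = 0.0744 in limma). Untreated KO had 3.76, 9.94 and 4.71 RPKM, below all 48 h KO libraries, and the change was 1.38 (SE 0.331, adjusted p = 0.0109 in limma). That KO call was lost without the first untreated library or the second 48 h library, with a highest adjusted p of 0.0628.

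S100A7 passed no time comparison. Its WT means were 1.57 ± 0.82, 1.31 ± 0.37 and 0.64 ± 0.22 RPKM (SD, n = 3), and its KO means 1.34 ± 0.12, 0.99 ± 0.24 and 0.45 ± 0.49. The 48 h changes were -0.60 in WT (adjusted p = 0.126 in limma) and -0.74 in KO (adjusted p = 0.0605 in limma). Without the third untreated WT library, at 0.67 RPKM, the WT change had an adjusted p of 0.0252. Without the first 48 h KO library, at 0.97 RPKM, the KO change had one of 0.0167.

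**Figure D4:**
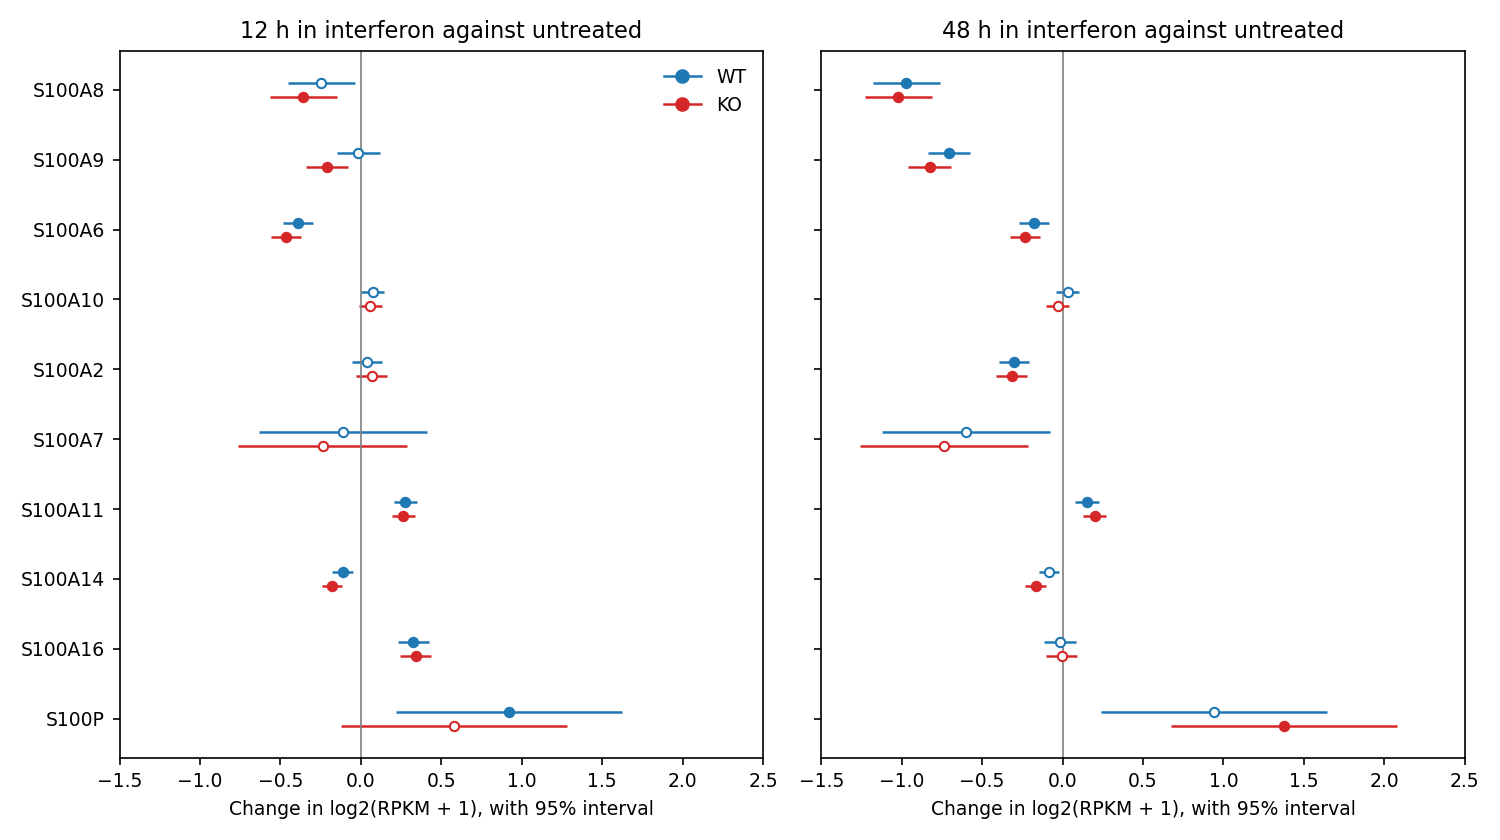
Change in log2(RPKM + 1) after 12 h (left) and 48 h (right) in interferon against untreated cells of the same line, with 95% intervals, for WT (blue) and SP100 KO (red). Filled points passed the adjusted test. S100A8 and S100A9 lie farthest to the left at 48 h, at -0.97 and -0.71 in WT and -1.02 and -0.83 in KO. This scale understates changes of genes with low values. S100A7 was at 40.8% of its untreated mean RPKM in WT and 33.9% in KO at 48 h, without a call. The intervals of the 2 lines overlap for every gene, which is not a test of the difference between the lines.

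Whether the response to interferon differed between the lines was tested as an interaction, the KO change minus the WT change. None of the 8 genes passed at 12 h, where 0.0753% of all tested genes did, or at 48 h, where 0.0828% did. At an unadjusted p below 0.05 the count was 0 of 8 in limma at both times, with smallest values of 0.129 and 0.0608, both for S100A14. For S100A6 the interaction was -0.074 at 12 h, with a 95% interval of -0.21 to 0.059, and -0.055 at 48 h, with one of -0.19 to 0.078. For S100A16 the intervals were -0.12 to 0.15 and -0.13 to 0.15. For S100A8 and S100A9, given without a test, the values were -0.11 and -0.20 at 12 h and -0.052 and -0.12 at 48 h.

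S100A8 and S100A9 kept a similar ratio within libraries, and its mean was higher at 12 and 48 h than in untreated cells. S100A9 over S100A8 was 2.89, 2.53 and 2.74 in untreated WT libraries, with means of 3.21 ± 0.23 at 12 h and 3.30 ± 0.14 at 48 h (SD, n = 3). In KO the means were 2.97 ± 0.084, 3.31 ± 0.36 and 3.46 ± 0.22. All 48 h ratios lay above all untreated ratios of the same line. The 12 and 48 h ranges overlapped within each line, and WT and KO overlapped at each time. ANXA2 over S100A10, the partners of the annexin heterotetramer, had means of 2.24, 2.19 and 1.98 in WT and 2.33, 2.32 and 2.12 in KO. The ANXA2 ratio was lower in every 48 h library than in any untreated library of the same line.

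**Figure D5:**
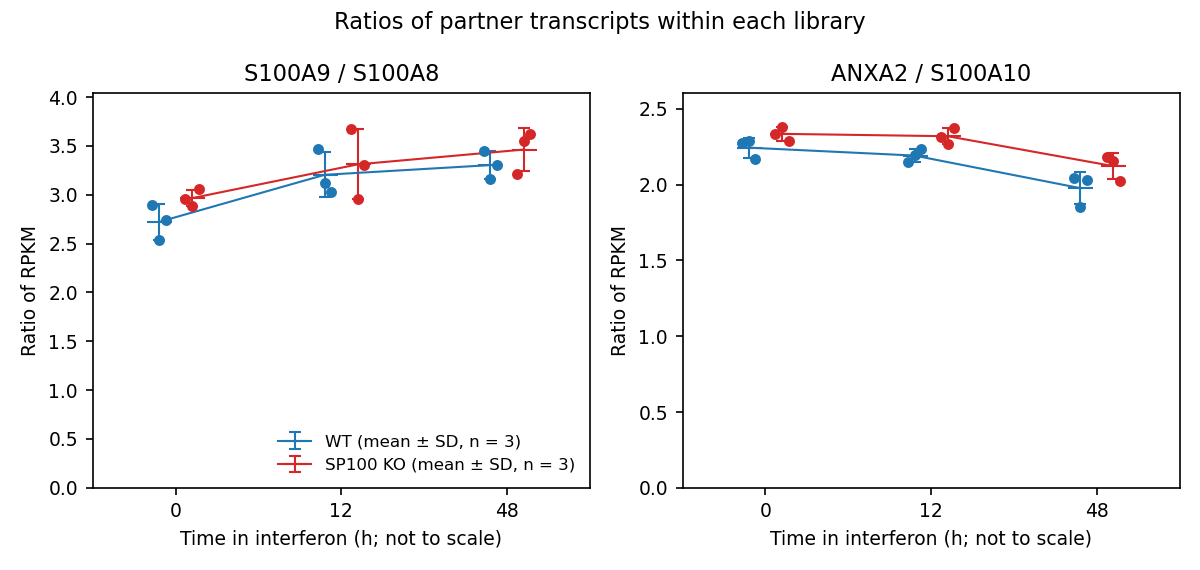
Ratio of RPKM within each library for S100A9 over S100A8 (left) and ANXA2 over S100A10 (right) against time in interferon (0, 12 and 48 h, evenly spaced), with the mean and SD of 3 in WT (blue) and SP100 KO (red). S100A9 over S100A8 runs from a mean of 2.72 in untreated WT to 3.30 at 48 h, and ANXA2 over S100A10 from 2.24 to 1.98.

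Of 9420 tested genes with a mean of at least 5 RPKM, the gene whose pattern over the 18 libraries was most like S100A8 was S100A9, with a Pearson correlation of 0.976 on the log2 scale, and the reverse held too. Others among the most alike were MT1L (0.940), TPM2 (0.932) and LFNG (0.922) for S100A8. For S100A9 they were CRIP2 (0.937), MT1L (0.933) and TPM2 (0.921). S100A2 stood at rank 21 for S100A8 and rank 12 for S100A9, with correlations of 0.859 and 0.879. S100A6 stood far lower, at 0.506 and 0.413, and S100P was negative, at -0.69 and -0.62. These correlations describe 18 libraries that share 6 group means and carry no test. S100A8 and S100A9 were both chosen by their lower level in KO, and that shared difference enters their correlation.

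The 3 tested S100 genes outside the list did not pass as lower in the knockout. Among all tested genes 2.07%, 2.02% and 2.16% did at 0, 12 and 48 h, so a count over 3 genes says little. Of the 11 others looked for, 6 have a row and 3 passed the filter: S100A13, S100A3 and S100A4. None of the 3 passed between the lines at any time. S100A13, which takes part in the release of FGF1, was at 161.6, 178.0 and 171.0 RPKM in untreated WT and at 173.6, 171.7 and 185.7 in untreated KO. It fell at 48 h in both lines, by 0.25 in WT (adjusted p = 0.00374 in limma) and by 0.24 in KO (adjusted p = 0.00427 in limma). S100A4, a marker of motile and mesenchymal cells, had differences of -0.50, -0.68 and -0.28 in KO against WT, with adjusted p-values of 0.21, 0.0923 and 0.576 in limma. At 12 h its KO libraries, at 3.12 to 5.74 RPKM, all lay below its WT libraries, at 6.74 to 8.56. The lines overlapped at 0 and 48 h. S100A3 was at 4.93 to 9.81 RPKM in all libraries and fell at 12 h in WT, by 0.42 (adjusted p = 0.0171 in limma). S100A12, which lies between S100A8 and S100A9, reached at most 1.38 RPKM, and S100A1 and S100A5 stayed below 1. S100A7A, S100B and the fused S100 genes such as FLG were not analysed here.

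Genes of S100 binding partners were looked at beside the list. Of 10 partner genes, limma called 0 in KO against WT at 0, 12 or 48 h, a count near the 4.89%, 3.62% and 4.19% of all tested genes that passed. At an unadjusted p below 0.05 the counts were 1, 1 and 2 of 10 in limma. The share over all genes at that threshold was not computed, so these counts carry no reading about the partners. ANXA2, the partner of S100A10, differed by -0.010, -0.001 and -0.025. ANXA2 fell at 48 h, by 0.15 in WT (adjusted p = 0.00642 in limma) and by 0.17 in KO (adjusted p = 0.00312 in limma). Among 5 tested receptor genes, MCAM, a cell adhesion molecule that binds S100A8 and S100A9, was lower in KO at all 3 times. MCAM was at 22.4, 21.2 and 21.0 RPKM in untreated WT and at 14.1, 14.0 and 14.3 in untreated KO. Its differences were -0.57, -0.61 and -0.50, with limma adjusted p-values of 0.000123, 8.86e-05 and 0.000489. The other tested receptors, AGER, BSG, ALCAM and NPTN, passed at no time between the lines.

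Genes that often rise with S100A8 and S100A9 in inflamed skin were followed beside them. Of 15 tested genes of the inflammatory keratinocyte list, WT had 10 higher and 1 lower at 12 h and KO had 9 higher and 1 lower, while S100A8 and S100A9 rose in neither. Over all tested genes 15.1% were higher and 29.8% lower in WT at 12 h, and 16% and 32.8% in KO. From 12 to 48 h, as S100A8 and S100A9 fell, 9 of the 15 fell in WT and 7 in KO, against 11.3% and 14% of all tested genes. At 48 h against untreated 3 of the 15 were higher in WT and 4 in KO, and none was lower, against 6.52% and 5.9% of all tested genes higher. At 12 h the largest change of the list on the log2(RPKM + 1) scale was that of KRT6B, a keratin of activated keratinocytes, at 2.35 in WT (adjusted p = 3.29e-13 in limma) and 2.2 in KO (adjusted p = 8.27e-13 in limma). Between the lines 2 genes of this list were higher in KO and 1 lower at 0 h. At 12 h and at 48 h 1 was higher and 1 lower. The shares over all tested genes were 2.82%, 1.6% and 2.03% higher and 2.07%, 2.02% and 2.16% lower at 0, 12 and 48 h. Higher at 0 h were SERPINB3 at 0.46 and IL1B at 0.31 (adjusted p = 0.0213 and 0.011 in limma), and CXCL1 was higher at 12 h at 0.74 (adjusted p = 0.0074 in limma). SLPI, a secreted protease inhibitor, was lower at all 3 times at -0.41, -0.55 and -0.43 (adjusted p = 0.0193, 0.00323 and 0.0151 in limma). Of 14 tested differentiation genes, 9 rose and 1 fell at 12 h in each line. Beside them 15.1% of all tested genes were higher and 29.8% lower in WT, and 16% and 32.8% in KO. Between the lines 1 of the 14 passed at each time, lower at 0 h and higher at 12 and 48 h, where 4.89%, 3.62% and 4.19% of all tested genes passed.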

How the data were processed

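The authors deposited 1 table of RPKM values for 16472 Ensembl genes in 18 libraries, rounded to 2 decimals. The submitters' processing notes name cutadapt, STAR 2.6.1, RSEM 1.3.0, limma 3.50.3 and hg19, with no role or order, and total RNA from an RNeasy kit gave stranded mRNA libraries, per the labels' protocols. Gene IDs were matched to symbols by table. Values were transformed to log2(RPKM + 1), genes reaching an RPKM of 1 in 3 or more libraries were kept, and all 18 libraries entered a model with 6 group means in limma 3.58.1 under R 4.3.3, with trended variances. The threshold was an adjusted p of 0.05 (Benjamini-Hochberg over 13280 genes). The model was tested on simulated data. Alternatives were a pseudocount of 0.1, no filter, median-of-ratios scaling, a minimum mean RPKM of 5, untrended variances, the comparison's libraries alone, a replicate block, and leaving out each library. All listed genes were named, and members of other lists by the size of their change among those that passed. The genes most like S100A8 and S100A9 were ranked by Pearson correlation, and some are not reported here. The members and lists were chosen with earlier results of these data known. The labels give no batch, and replicates within a group correlated at 0.9853 to 0.9894 across genes. P-values set differences between groups against the spread among replicates within groups. With 1 line per genotype they do not cover variation between lines.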

Additional observations from a re-analysis of the deposited data

How the results depend on the processing

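Of 40 calls of single genes in the 11 comparisons, 31 were kept in every alternative run for them and 9 were lost in at least 1. The number of genes called, KO against WT at 48 h, was 2 and became 1 with no filter on low values, with untrended variances or with the replicate block, and 1 to 3 when a library was left out. At 0 h it was 2 and became 1 in a fit on the untreated libraries alone. The other counts stayed within 1.5 times, and the interactions gave 0 under all alternatives run. Over 45 pairs of same-numbered replicates the correlation of their deviations was -0.097 to 0.157, with a median of -0.013, and 2 were above 0.1. Over 90 pairs of different number it was -0.109 to 0.145, with a median of 0.008, and 2 were above 0.1. Only 2 of 18 libraries correlated best with their own number. No clear pairing by number was seen, but the check cannot exclude that same-numbered cultures were handled together.

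With median-of-ratios scaling 6 changes without a call turned sign: S100A9 at 12 h in WT to 0.075, S100A14 from 12 to 48 h to -0.055 in WT and -0.076 in KO, S100P from 12 to 48 h in WT to -0.054, S100A16 at 48 h in KO to 0.010, and the S100A11 interaction at 12 h to 0.001. Leaving out a library turned the sign of further uncalled values. For KO against WT the ranges were -0.013 to 0.039 for S100A11 at 12 h, -0.096 to 0.307 for S100P at 12 h, and -0.363 to 0.124 at 0 h and -0.467 to 0.022 at 48 h for S100A7. For time they were -0.393 to 0.094 for S100A7 and -0.064 to 0.048 for S100A9 at 12 h in WT, -0.041 to 0.012 in WT and -0.040 to 0.042 in KO for S100A16 at 48 h, and from 12 to 48 h -0.005 to 0.039 for S100A14 in KO and -0.156 to 0.12 for S100P in WT. For the interaction at 12 h they were -0.009 to 0.069 for S100A2, -0.332 to 0.155 for S100A7, -0.033 to 0.015 for S100A10, -0.043 to 0.009 for S100A11, -0.006 to 0.055 for S100A16 and -0.738 to 0.014 for S100P. At 48 h they were -0.052 to 0.025 for S100A2, -0.386 to 0.143 for S100A7 and -0.024 to 0.058 for S100A16. The cause was not tested. A mean RPKM of at least 5 left S100A7 untested. Total depth is unknown, and S100A7 and S100P rest on low values.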
